A study of Homo sapiens with 45 samples.

Results

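The genes of cholesterol and fatty acid synthesis were followed through a silencing experiment in SUDHL6, a human diffuse large B-cell lymphoma line of germinal centre type. The set was drawn up by gene symbol from the textbook pathway. It holds 32 genes, of which 18 are enzymes of the sterol pathway, 7 are regulators and carriers, and 7 are enzymes of fatty acid synthesis. A probe with that symbol was found for 30 of them, and 28 gave a signal above background, among 8625 genes so measured. These were 17 sterol enzymes, 5 regulators and carriers and 6 fatty acid enzymes. The sterol enzymes measured were, in pathway order, ACAT2, HMGCS1, MVK, PMVK, MVD, IDI1, FDPS, SQLE, LSS, CYP51A1, TM7SF2, MSMO1, NSDHL, HSD17B7, EBP, SC5D and DHCR7. The regulators and carriers measured were SREBF1, SCAP, INSIG1, INSIG2 and TMEM97, and the fatty acid enzymes ACLY, ACACA, FASN, SCD, ELOVL6 and FADS1. FDFT1 (squalene synthase) and SREBF2 (the transcription factor SREBP-2) had no probe under their symbol in the annotation used here. STARD4, a cytosolic sterol carrier, and FADS2, a fatty acid desaturase, were not above background, with means of 7.24 and 7.11 on the log2 scale of the arrays. In siNFYB they changed by -0.02 and -0.12, without a test across genes.

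Cells were nucleofected with 80 pmol of a pool of siRNAs, and RNA was taken after 20 h for 1 Illumina BeadArray per sample, 45 arrays in all. The series asks what follows when candidate regulators of the transformation of follicular lymphoma are removed. In the set of 15 arrays whose titles carry the letter A there were 3 arrays each of siNFYB, siNFYB+siFOXM1, siFOXM1, and the non-target controls siNT4 and siNT4+siNT4. The other 30 arrays, called the first set here, comprised siHMGA1, siFOXM1, siTFDP1, siATF5, siHMGA1+siFOXM1 and siHMGA1+siATF5 with 3 arrays each, siHMGA1+siTFDP1 with 4, siTFDP1+siATF5 with 2, siNT4 with 4 and siNT4+siNT4 with 2. The sources used here do not state what the letter A stands for. All groups share the cell line and the nucleofection, so the experiment speaks of 1 line. The labels do not state whether replicates came from different cultures, so p-values reflect the spread among arrays, which may be technical. In such bulk RNA, fewer cells of a kind and less RNA per cell cannot be told apart.

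Cholesterol is made from acetyl-CoA through mevalonate, isoprenoids, squalene and lanosterol, and fatty acids from acetyl-CoA through malonyl-CoA. The genes of both routes are switched on by SREBP transcription factors, which SCAP escorts from the endoplasmic reticulum to the Golgi for activation when sterols are low and which INSIG proteins hold back when sterols are plentiful. On many of these promoters SREBP works together with NF-Y, a complex of NFYA, NFYB and NFYC that binds the CCAAT box. NFYB, a subunit of that complex, was among the silenced genes, which is why its groups are described first.

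RefSeq promoter windows (GRCh38.p14, 250 bases before to 50 after a start site) were listed for 28 of the 32 genes, with 38 windows in all. No window was listed for ACAT2, FASN, FDFT1 and SQLE. The letters CCAAT, read on either strand, occurred in 25 of the 38 windows (65.8%), against 12155 of 35116 windows of all genes (34.6%). Counted by gene, 13 of 15 sterol enzymes (86.7%) had at least 1 such window, against 42.1% of protein-coding genes. At least 2 boxes stood in 11 of 20 sterol enzyme windows (55%), against 10.8% of all windows. The core TCACNCCAC of the classical sterol regulatory element was found in 1 window, that of SREBF2, against 1.13% of all windows. These are letter matches and not measured binding.

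The first 4 stretches show the recurrence of the box in genes named below, and the last shows it beside the sterol element, with the CCAAT letters (ATTGG when read from the other strand) and the sterol element core in capitals. MVK (mevalonate kinase) has 5 boxes in chr12:109573564-109573763 on the plus strand. NSDHL, which removes a methyl group from the sterol ring, has 5 in chrX:152830823-152831002 on the plus strand, 2 of them overlapping in 1 run of capitals. MSMO1, a sterol methyl oxidase, has 4 in chr4:165327469-165327648 on the plus strand. HMGCS1, which makes HMG-CoA, has 2 in chr5:43313493-43313592 on the minus strand. SREBF2 has 1 box and the sterol element core in chr22:41832955-41833014 on the plus strand. Each is written 5′ to 3′ on the strand of the gene.
MVK: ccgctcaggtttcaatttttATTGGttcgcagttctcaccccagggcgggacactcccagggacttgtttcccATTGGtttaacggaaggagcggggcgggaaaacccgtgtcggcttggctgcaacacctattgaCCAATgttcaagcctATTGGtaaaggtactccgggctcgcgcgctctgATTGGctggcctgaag
NSDHL: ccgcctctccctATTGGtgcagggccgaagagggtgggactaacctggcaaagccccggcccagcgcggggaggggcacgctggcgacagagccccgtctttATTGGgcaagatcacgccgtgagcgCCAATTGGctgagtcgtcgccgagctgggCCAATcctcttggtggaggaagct
MSMO1: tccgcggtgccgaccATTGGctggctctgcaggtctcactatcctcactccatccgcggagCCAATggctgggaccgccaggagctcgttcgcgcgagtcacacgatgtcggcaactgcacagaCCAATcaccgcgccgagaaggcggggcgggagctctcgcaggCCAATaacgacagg
HMGCS1: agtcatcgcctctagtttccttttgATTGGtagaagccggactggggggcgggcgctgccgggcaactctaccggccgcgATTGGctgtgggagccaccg
SREBF2: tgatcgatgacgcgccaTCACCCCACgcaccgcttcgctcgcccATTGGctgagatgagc

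All levels below are the authors' log2 values and all changes are differences of log2 means, from limma over 44 arrays with Benjamini-Hochberg adjustment over 8625 genes and a threshold of 0.05 on the adjusted p. The array left out is siTFDP1+siATF5 replicate 3, which stood apart: its median correlation with the other arrays was 0.751 and 44.5% of its probes were above background, against 0.974 to 0.993 and 24.2% to 30.6% on the 44 others. On it, 19 of the 28 genes lay below the whole range of the other arrays and 5 lay above it. FASN, for one, stood at 13.70 there, against 11.18 to 12.22 elsewhere. Germinal centre markers (5 of 5) and B-cell markers (4 of the 5 with a probe, CD79A, CD79B, MS4A1 and CD22) were above background, T-cell markers were not (0 of 6), and 2 of 5 myeloid markers (CD14 and FCGR3A) and 1 of 5 stromal and epithelial markers (VIM) were.

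The silencing of the targets was uneven. HMGA1 fell in siHMGA1 (-1.55, adjusted p = 3.7e-12), siHMGA1+siFOXM1 (-1.06) and siHMGA1+siATF5 (-1.39), and its value in siHMGA1+siTFDP1 (-0.48) did not pass. TFDP1 fell in siTFDP1 (-1.06, adjusted p = 2.04e-09) and in siHMGA1+siTFDP1 (-0.63). With all 45 arrays the calls in siHMGA1+siFOXM1 (adjusted p = 0.0656) and siHMGA1+siTFDP1 (adjusted p = 1) were lost. On the arrays labelled siATF5, ATF5 fell (-0.69, adjusted p = 0.00284, but 0.105 when all 45 arrays were fitted) and so did TFDP1 (-1.86, adjusted p = 5.31e-18), whose value on the arrays labelled siTFDP1 was -1.06. Those arrays are called siATF5 here by their label alone. FOXM1 changed by -0.19 in siFOXM1 of set A, by -0.27 in that of the first set, by -0.38 in siHMGA1+siFOXM1 and by -0.26 in siNFYB+siFOXM1, none past the threshold. In siHMGA1+siATF5 ATF5 changed by -0.10 and TFDP1 by 0.00, and in siTFDP1+siATF5, on 1 array, ATF5 changed by -0.18 and TFDP1 by -0.76, none past the threshold. The NFYB probe passed the rule for signal above background but was dim, between 7.10 and 7.49 in siNFYB, against 7.30 to 7.41 in siNT4 of set A. It changed by -0.07 in siNFYB (95% interval -0.40 to 0.26) and by 0.12 in siNFYB+siFOXM1 (-0.21 to 0.45), so silencing of NFYB was not seen on these arrays, and groups are called by their labels throughout.

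**Figure D1:**
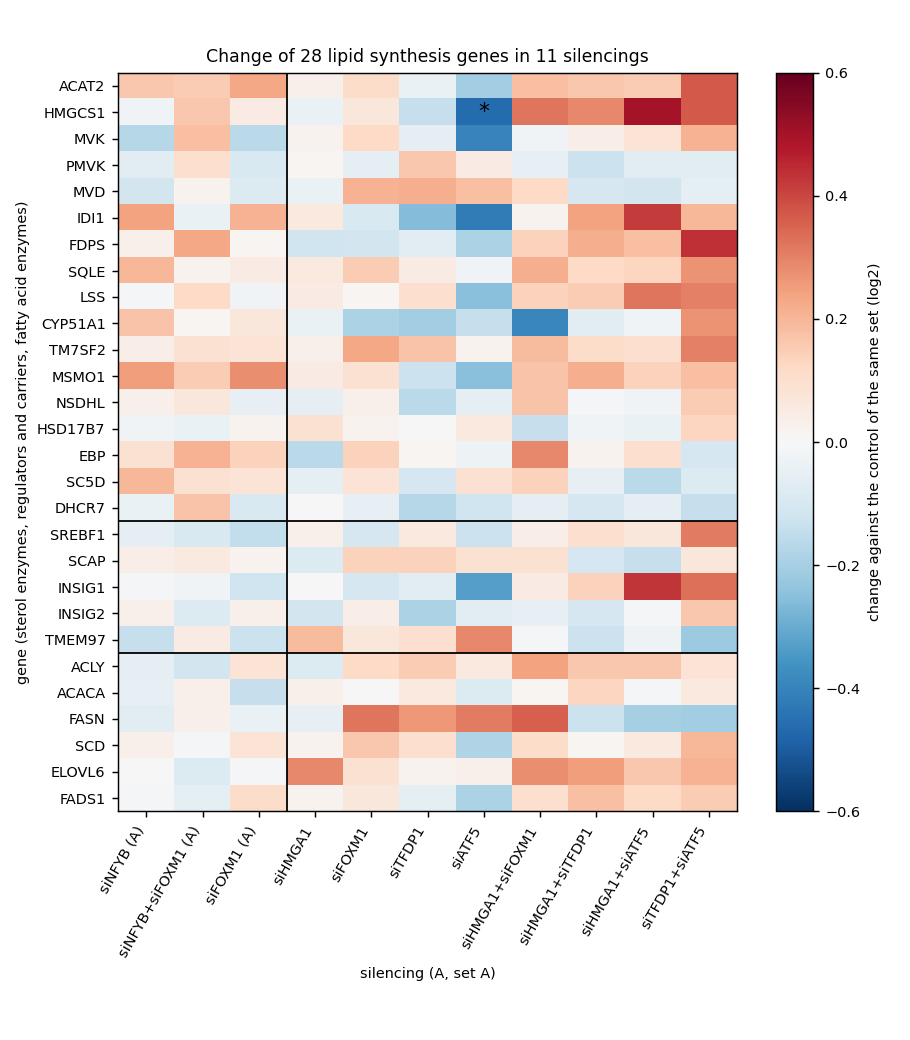
Change (log2, colour) of the 28 measured genes, by row, in the 11 silencings, by column, each against the non-target control of the same set. HMGCS1 in siATF5, at -0.46, is the only value past the adjusted threshold.

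On the arrays labelled siNFYB none of these genes passed the threshold. In siNFYB against siNT4 of set A, 0 of 28 genes passed in limma, where 0% of all genes passed in either direction. The count was 0 with all 45 arrays too, and at an unadjusted p under 0.05 it was 1 of 28 (3.57%), against 142 of 8625 genes (1.65%). The sterol enzymes had a median change of 0.03, with 10 of 17 above 0, the regulators and carriers of -0.01, the fatty acid enzymes of -0.03 and all genes of -0.01. The 95% intervals of the 28 genes reached no lower than -0.45 and no higher than 0.54. The median interval extended 0.25 to either side of its estimate, so smaller changes were generally not detectable with 3 arrays a group. These intervals are not adjusted for the 8625 genes tested, so changes above 0.25 could also miss the adjusted threshold.

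The 3 genes of smallest p were sterol enzymes. MSMO1 stood at 10.59, 10.72 and 10.85 in siNFYB, against 10.57, 10.27 and 10.58 in siNT4, a change of 0.25 (SE 0.12, limma adjusted p = 1). Its groups did not overlap, though the lowest siNFYB array lay just above the highest control. SQLE, squalene epoxidase, stood at 11.94, 12.08 and 12.24 in siNFYB, against 11.97, 11.72 and 11.99 in siNT4, and its groups overlapped (change 0.20, SE 0.12, limma adjusted p = 1). IDI1, which interconverts the isoprenoid building blocks, stood at 10.61, 10.40 and 10.89 in siNFYB, against 10.29, 10.46 and 10.41 in siNT4, again with overlap (change 0.24, SE 0.15, limma adjusted p = 1). MVK, whose promoter holds 5 boxes, changed by -0.17 (95% interval -0.45 to 0.11). NSDHL, whose promoter also holds 5, changed by 0.03.

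On the arrays labelled with both siRNAs none of these genes passed either. In siNFYB+siFOXM1 against siNT4+siNT4 of set A, 0 of 28 genes passed in limma, where 0.0116% of all genes passed upward and 0% downward. The 1 gene that passed was SMAP2, named after its value was seen, with a change of 0.54. At an unadjusted p under 0.05 there were 0 of 28, against 2.57% of all genes, and the count was 0 with all 45 arrays. The sterol enzymes lay above 0 in 15 of 17 cases with a median of 0.10, against 49% of all genes above 0 and a median of 0.00. Positive sterol medians were not confined to this pair, as the values of the pairs in the first set below show. Array by array that sterol median was 0.14, 0.13 and 0.07 above the control mean. The fatty acid enzymes had a median of -0.04, with 2 of 6 above 0.

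Again the 3 genes of smallest p were sterol enzymes, none past the threshold. EBP, the sterol isomerase, stood at 9.49, 9.40 and 8.83 in siNFYB+siFOXM1, against 9.09, 9.06 and 8.92 in siNT4+siNT4 (change 0.21, SE 0.13). The third silenced array lay below all the controls, so the groups overlapped. FDPS, which makes farnesyl diphosphate, stood at 10.08, 10.24 and 10.19 in siNFYB+siFOXM1, against 9.78, 9.94 and 10.08 in siNT4+siNT4 (change 0.23, SE 0.15), and the groups met at 10.08. ACAT2, which joins acetyl-CoA units at the head of the pathway, stood at 10.67, 10.64 and 10.74 in siNFYB+siFOXM1, against 10.61, 10.38 and 10.59 in siNT4+siNT4, with no overlap (change 0.15, SE 0.11). Each of the 3 had a limma adjusted p of 1.

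**Figure D2:**
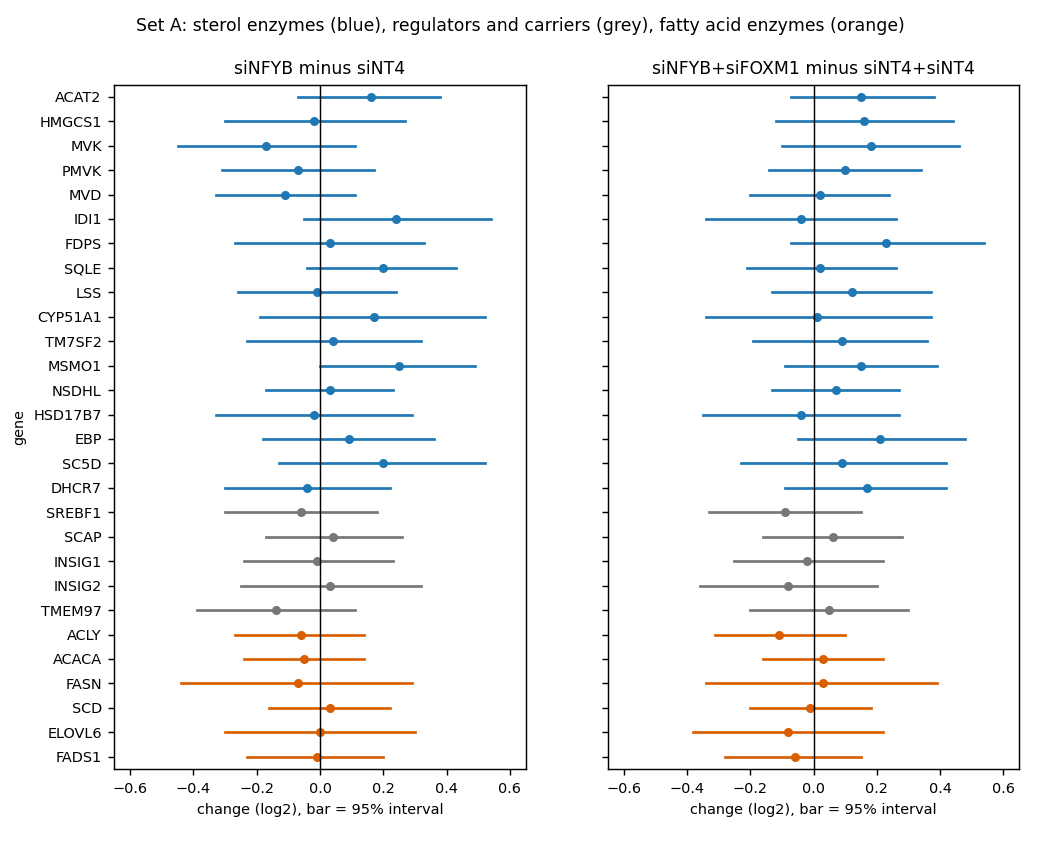
Change (log2, x axis, with 95% intervals) of each measured gene (y axis) in siNFYB (left) and siNFYB+siFOXM1 (right) of set A against the controls of that set. Points lie between -0.17 and 0.25, and no gene passed the adjusted threshold in either panel.

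Neither direct comparison of NFYB with FOXM1 silencing called any of these genes. Setting siNFYB against siFOXM1 in set A, 0 of 28 genes passed, where 0% of all genes did, with 0 of 28 at an unadjusted p under 0.05 against 2.47% of all genes. The smallest p belonged to ACLY, which makes cytosolic acetyl-CoA (-0.14), SQLE (0.14) and the desaturase FADS1 (-0.13). When the change in siFOXM1 was subtracted from that in siNFYB+siFOXM1, 0 of 28 genes passed, where 0% of all genes did, with 0 at an unadjusted p under 0.05 against 2.21%. The leading values there were MVK at 0.34 (95% interval -0.05 to 0.74), DHCR7, the last-step sterol reductase, at 0.25, and ACLY at -0.19. Both counts were 0 with all 45 arrays. In siFOXM1 against siNT4 of set A 0 of 28 passed (0% of all genes), with 2 at an unadjusted p under 0.05 (7.14%, against 2.27%), MSMO1 at 0.28 and ACAT2 at 0.23. The siNFYB and siFOXM1 comparisons share their 3 control arrays.

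The CCAAT letters were set beside these changes as a description. In siNFYB the 18 measured genes with at least 1 box had a median change of -0.01 (-0.17 to 0.25) and the 7 without one lay between -0.07 and 0.17. In siNFYB+siFOXM1 the medians were 0.08 for the 18 genes with a box and -0.06 for the 7 without one. Such a split was not confined to the pair with siNFYB. In first-set pairs, medians with and without a box were 0.13 and 0.04 in siHMGA1+siFOXM1 and 0.08 and -0.07 in siHMGA1+siTFDP1. They were 0.09 and -0.01 in siHMGA1+siATF5 and 0.17 and 0.16 in siTFDP1+siATF5. Over all measured genes with a window, 3091 had a box and their medians were -0.01 in siNFYB and 0.00 in siNFYB+siFOXM1.

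Other lipid genes were not called either. In siNFYB none passed among 9 genes of isoprenoid use, 13 of SREBP processing and turnover, 9 of sterol transport, storage and efflux, 15 further genes of fatty acid synthesis and activation and 11 of fatty acid oxidation. Their median changes were -0.01, -0.05, 0.02, 0.00 and -0.08 in that order. In siNFYB+siFOXM1 none of these passed either, with medians of 0.05, -0.02, -0.03, 0.01 and 0.01. The 3 NF-Y subunits changed by between -0.07 and 0.16 in siNFYB.

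In the first set, silencing HMGA1, FOXM1 or TFDP1 alone called none of the 28 genes. For siHMGA1 0% of all genes passed upward and 0.0116% (HMGA1 itself) downward, for siFOXM1 0% both ways, and for siTFDP1 0.0116% upward and 0.0696% downward. At an unadjusted p under 0.05 the counts were 1, 0 and 1 of 28, against 2.13%, 10.6% and 12.6% of all genes, and all 3 adjusted counts were 0 with 45 arrays. The smallest p belonged to ELOVL6, a fatty acid elongase, in siHMGA1 (change 0.29, limma adjusted p = 1) and to MVD, the mevalonate diphosphate decarboxylase, in siFOXM1 (0.21, limma adjusted p = 0.474) and siTFDP1 (0.22, limma adjusted p = 0.377). The sterol enzymes had medians of 0.01 in siHMGA1, 0.07 in siFOXM1 and -0.06 in siTFDP1, and the fatty acid enzymes of 0.02 (4 of 6 above 0), 0.11 (6 of 6) and 0.08 (5 of 6) in the same order, against -0.01 for all genes in each. FASN, the fatty acid synthase, differed by 0.32 in siFOXM1 of the first set and by -0.04 in siFOXM1 of set A. The test of that difference between the 2 sets, added after these values were seen, called 0 of 28 genes, where 0% of all genes passed, with 0 at an unadjusted p under 0.05 against 4.81%.

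On the arrays labelled siATF5, HMGCS1 fell. It stood at 11.18, 11.18 and 11.60 in siATF5, against 11.64, 11.66, 11.90 and 11.93 in siNT4 of the first set, and the groups did not overlap. The change was -0.46 (SE 0.13, a fold of 0.726, limma adjusted p = 0.0306). It was 1 of 28 genes to fall and 0 rose, where 3.15% of all genes fell and 2.78% rose. At an unadjusted p under 0.05 there were 9 of 28 (32.1%), against 23.8% of all genes. IDI1 (-0.42, adjusted p = 0.0561), MVK (-0.40, adjusted p = 0.0544) and INSIG1 (-0.33, adjusted p = 0.0606) came next and did not pass. With the deposited order in the fit as blocks, described below, IDI1 (adjusted p = 0.0365) and MVK (adjusted p = 0.0435) passed beside HMGCS1 (adjusted p = 0.0243), and with quantile normalization MVK did. INSIG1, which holds SREBP back, stood at 10.32, 10.17 and 10.69 in siATF5, against 10.70 to 10.75 in siNT4. MVK stood at 7.47, 6.85 and 7.74 in siATF5, against 7.70 to 7.87 in siNT4, so that replicate 3 lay within the controls. Of the 17 sterol enzymes 12 lay below 0, with a median of -0.12, against -0.03 for all genes. Of the other lipid genes, CPT1A, which takes fatty acids into mitochondria, rose by 0.46 (limma adjusted p = 0.005, but 0.4 with 45 arrays).

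The HMGCS1 call was not stable, and neither were most calls in siATF5. With all 45 arrays 0.0116% of all genes rose and 0.0348% fell, against 2.78% and 3.15% with 44. The HMGCS1 call was lost in that fit (limma adjusted p = 0.523) and when the first set was fitted alone (0.0815). It was also lost when the share of probes above background entered the fit (change -0.23, limma adjusted p = 0.997). That share was 29.4% and 30.6% on siATF5 replicates 1 and 2, the highest of the 44 arrays, and 25.4% on replicate 3, against 25.2% to 25.9% in siNT4. Its part in the result was not otherwise tested. Leaving out 1 array at a time gave changes from -0.60 to -0.39 and adjusted p from 0.00273 to 0.22, past the threshold in 3 of 7 fits. Without siATF5 replicate 3, which had the highest HMGCS1 of the 3, 8 of 28 genes passed, and without replicate 1, replicate 2 or siNT4 replicate 4 none did. The shares of all genes passing in those fits are not given here, so these counts cannot be read as particular to the 28 genes. Within the samples deposited next to siATF5 replicates 1 and 2 HMGCS1 differed by -0.60, and within those next to replicate 3 by -0.18.

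**Figure D3:**
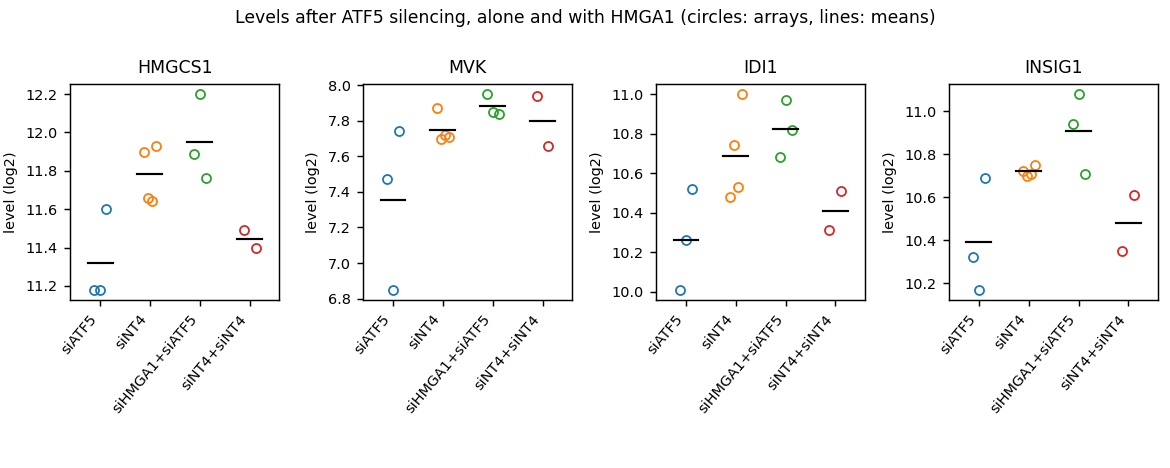
Levels (log2, y axis) of genes named for siATF5, alone and with siHMGA1, and their non-target controls (x axis); circles are arrays and lines are means. For HMGCS1 the siATF5 arrays lie at 11.18, 11.18 and 11.60 and the siHMGA1+siATF5 arrays at 11.89, 12.20 and 11.76.

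No pair of the first set called any of the 28 genes. The background was 0% upward and 0.0116% downward in siHMGA1+siFOXM1, in siHMGA1+siTFDP1 and in siHMGA1+siATF5, and 0% both ways in siTFDP1+siATF5, which rests on 1 array assumed to vary like the other groups. At an unadjusted p under 0.05 the counts were 2, 0, 4 and 1 of 28 in that order, against 8.39%, 3.25%, 4.17% and 2.99% of all genes. With all 45 arrays the count was 10 in siTFDP1+siATF5, where 14.4% of all genes passed upward and 38.9% downward, and 0 in the other 3. The smallest p belonged to ACLY in siHMGA1+siFOXM1 (0.24), HMGCS1 in siHMGA1+siTFDP1 (0.29), INSIG1 in siHMGA1+siATF5 (0.43, limma adjusted p = 0.722) and ACAT2 in siTFDP1+siATF5 (0.37). The sterol enzymes had medians of 0.14 (12 of 17 above 0) in siHMGA1+siFOXM1, 0.04 (10 of 17) in siHMGA1+siTFDP1, 0.10 (10 of 17) in siHMGA1+siATF5 and 0.20 (12 of 17) in siTFDP1+siATF5. The fatty acid enzymes had medians of 0.17 (6 of 6 above 0), 0.14 (5 of 6), 0.09 (4 of 6) and 0.12 (5 of 6) in the same order, while the medians of all genes lay between -0.01 and 0.01. Array by array the fatty acid median in siHMGA1+siFOXM1 was 0.28 and 0.22 on replicates 1 and 2 and 0.03 on replicate 3. Replicates 1 and 2 lie in block 1 of the deposited order, described below, and the siNT4+siNT4 arrays in blocks 2 and 3. Within block 3, with 1 array a side, FASN differed by -0.10 and the other fatty acid enzymes measured by 0.04 to 0.23. All these pairs were set against the same 2 siNT4+siNT4 arrays, so their changes are not independent. Against siNT4 those control arrays had medians of -0.09 for sterol enzymes (6 of 17 above 0) and -0.09 for fatty acid enzymes (0 of 6). The part of this in the medians of the pairs was not tested. HMGCS1 in siHMGA1+siATF5 stood at 11.89, 12.20 and 11.76, against 11.49 and 11.40 in siNT4+siNT4, a change of 0.50 (limma adjusted p = 0.742).

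HMGCS1 was low in siATF5 and high in siHMGA1+siATF5, and a direct comparison was added after these values were seen. In siHMGA1+siATF5 against siATF5, 5 of 28 genes rose and 1 fell, where 6.67% of all genes rose and 6.81% fell. The genes that rose were HMGCS1 (0.63), MVK (0.53), IDI1 (0.56), LSS, the lanosterol synthase (0.44), and INSIG1 (0.52). FASN fell by 0.69, with 11.50, 11.24 and 11.22 in siHMGA1+siATF5, against 12.22, 12.19 and 11.61 in siATF5. The limma adjusted p of the 6 ran from 0.00476 to 0.0183. None passed with all 45 arrays (limma adjusted p of 0.181 to 0.473), where 0.0464% of all genes rose and 0.0464% fell. None passed when the deposited order entered the fit in blocks or when the share of probes above background did. The count was 3 without siATF5 replicate 1, 0 without siATF5 replicate 2 and 3 without siHMGA1+siATF5 replicate 2. The shares of all genes passing with an array left out are not given here. A pair is here set against a single silencing, and the siNT4+siNT4 arrays themselves differed from siNT4 in HMGCS1 by -0.34, and between the groups compared TFDP1 differed by 1.94 (limma adjusted p = 1.49e-17), HMGA1 by -1.30 and ATF5 by 0.24. The pairing of siRNAs, HMGA1 and TFDP1 cannot be told apart in this comparison. Most of the arrays also differ in their place in the deposited order, described below. The siATF5 replicates 1 and 2 lie in block 1 and the siHMGA1+siATF5 arrays in blocks 2 and 3.

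Doubling the control siRNA called none of the 28 genes. In siNT4+siNT4 against siNT4 of set A 0.0348% of all genes passed upward (ADI1, BLNK and HSPA6, named after their values were seen) and 0% downward, and in the first set 0% both ways. At an unadjusted p under 0.05 there were 4 of 28 genes in set A (14.3%, against 8.15% of all genes) and 1 in the first set (3.57%, against 3.12%), and both adjusted counts were 0 with 45 arrays. CYP51A1, the lanosterol demethylase, had the smallest p in set A, at 10.22, 10.25 and 10.09 in siNT4+siNT4, against 9.67, 9.69 and 9.54 in siNT4 (change 0.56, limma adjusted p = 0.258). HMGCS1 had it in the first set (-0.34, limma adjusted p = 1).

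Levels on the control arrays themselves differed between the 2 sets. In siNT4 of set A against siNT4 of the first set, a comparison added after seeing the data, 3 of 28 genes fell and 1 rose, where 0.754% of all genes fell and 2.18% rose. MSMO1 stood at 10.57, 10.27 and 10.58 in set A, against 11.20, 11.02, 11.30 and 10.89 in the first set (change -0.63, SE 0.11, limma adjusted p = 0.000341). HMGCS1 stood at 11.15, 11.24 and 11.16 in set A, against 11.90, 11.66, 11.93 and 11.64 in the first set (change -0.60, SE 0.13, limma adjusted p = 0.00381). SQLE stood at 11.97, 11.72 and 11.99 in set A, against 12.46, 12.26, 12.59 and 12.26 in the first set (change -0.50, SE 0.11, limma adjusted p = 0.00432). None of these groups overlapped, and the sterol enzymes as a group had a median of -0.20 with 13 of 17 below 0, against -0.01 for all genes.

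SREBF1, which encodes SREBP-1, went the other way. It stood at 9.50, 9.52 and 9.23 in siNT4 of set A, against 8.75, 8.70, 8.89 and 8.98 in siNT4 of the first set (change 0.59, SE 0.11, limma adjusted p = 0.000601). Among the other lipid genes ABCA1, the cholesterol efflux pump, was also higher, at 9.76, 9.58 and 9.58 in set A, against 8.96, 9.15, 9.07 and 9.02 in the first set (change 0.60, limma adjusted p = 0.000161). With all 45 arrays the call of SREBF1 held (limma adjusted p = 0.00645), those of MSMO1, HMGCS1 and SQLE were lost, and ABCA1 had an adjusted p of 0.207. In that fit 0.672% of all genes rose and 0.139% fell.

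The siFOXM1 groups also differed between sets, and this comparison and that of the siNT4+siNT4 groups were likewise added after seeing the data. In siFOXM1 of set A against that of the first set SREBF1 rose (0.54), while HMGCS1 (-0.63), SQLE (-0.59), MSMO1 (-0.44), SCAP (-0.43) and SCD, the stearoyl-CoA desaturase (-0.32), fell, where 4.22% of all genes rose and 2.91% fell. With all 45 arrays SREBF1 was the 1 gene of the 28 that passed, where 0.986% of all genes rose and 0.441% fell. Without siFOXM1 replicate 1 of set A the count was 3, and the share of all genes there is not given here. Between the siNT4+siNT4 groups 0 of 28 genes passed (0.452% of all genes rose and 0.128% fell, 0 of 28 passed with 45 arrays, and 5 of 28 had an unadjusted p under 0.05, against 8.87%). There SREBF1 differed by 0.47 (limma adjusted p = 0.0833), HMGCS1 by -0.29, MSMO1 by -0.26 and SQLE by -0.29, while ABCA1 rose by 0.78 (0.303 as adjusted p with 45 arrays). Whatever differed between the sets cannot be told apart here.

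**Figure D4:**
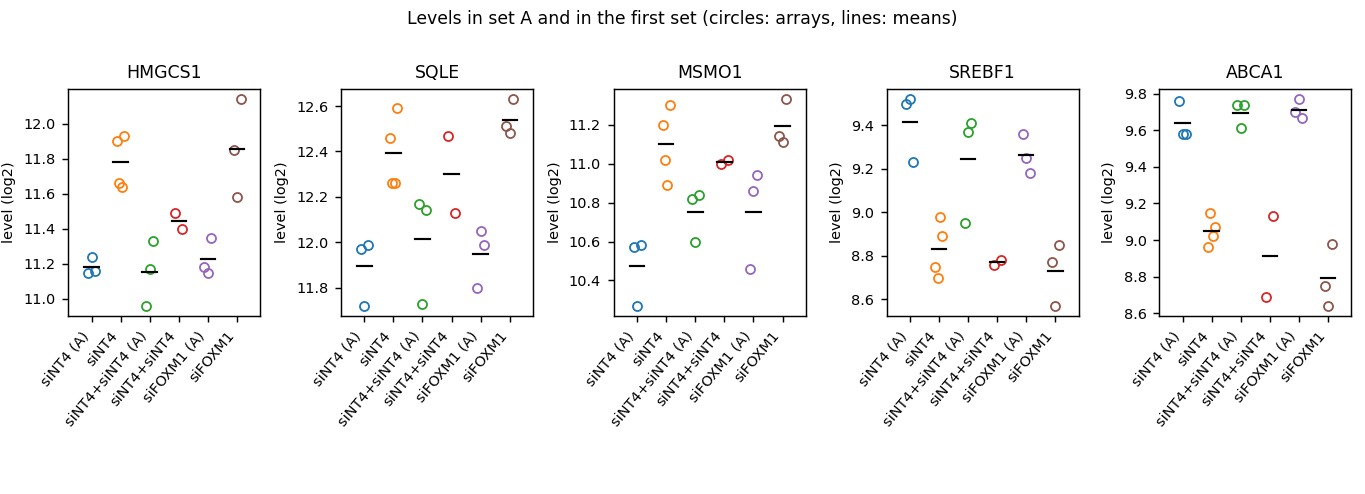
Levels (log2, y axis) of HMGCS1, SQLE, MSMO1, SREBF1 and ABCA1 in the groups present in both sets (x axis); circles are arrays and lines are means. In siNT4 the means of HMGCS1 are 11.18 in set A and 11.78 in the first set, and those of SREBF1 are 9.42 in set A and 8.83 in the first set.

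FASN moved with the place of a sample in the deposited order. After the data had been seen, samples were taken in blocks of 12, 12, 12 and 9 in that order, the sizes of the 4 chips named in a raw table of the series, though no label ties an array to a chip. FASN lay between 11.80 and 12.22 in the 12 arrays of block 1, between 11.25 and 11.68 in the 12 of block 2, between 11.18 and 11.44 in the 11 of block 3 and between 11.29 and 11.59 in the 9 of block 4. Block 1 did not overlap the others, and the split ran through single groups: siNT4 of the first set had 11.92 and 11.80 in block 1 and 11.56 and 11.51 in block 2. CYP51A1 lay between 9.53 and 9.96 in block 4, which holds all siNFYB, siFOXM1 and siNT4 arrays of set A, between 9.60 and 10.19 in block 1, between 9.89 and 10.40 in block 2 and between 10.06 and 10.64 in block 3, so that block 4 overlapped blocks 1 and 2. The siNT4+siNT4 arrays of set A lie in blocks 2 and 3, so the kind of control and the block cannot be told apart there. For the same reason set A and block 4 cannot be told apart in siNT4 or siFOXM1. The siNT4+siNT4 arrays of both sets share blocks 2 and 3, with 1 or 2 arrays a side. Within block 2 SREBF1 was 8.95 in set A and 8.76 in the first set, HMGCS1 10.96 in set A and 11.49 in the first set, MSMO1 10.82 in set A and higher in the first set, and SQLE 12.17 in set A and 12.47 in the first set. Within block 3 SREBF1 was 9.37 and 9.41 in set A and 8.78 in the first set, HMGCS1 11.17 and 11.33 in set A and 11.40 in the first set, and MSMO1 10.60 and 10.84 in set A and 11.02 in the first set. SQLE overlapped there, at 11.73 and 12.14 in set A and 12.13 in the first set. These few arrays allow no test within a block.

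**Figure D5:**
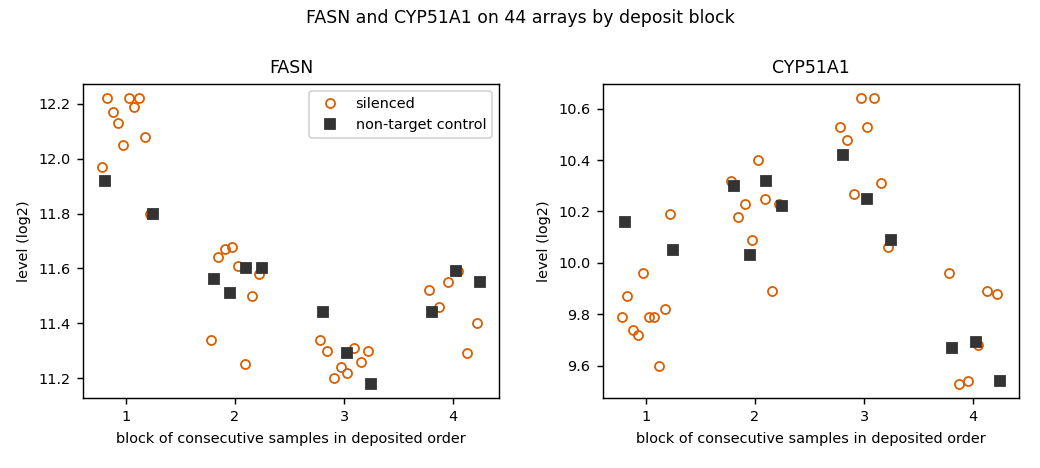
Levels (log2, y axis) of FASN and CYP51A1 on 44 arrays by block of consecutive samples in deposited order (x axis), with silenced and control arrays marked apart. The FASN values of block 1, from 11.80 to 12.22, lie above those of the other 3 blocks.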

How the data were processed

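Expression was measured on 45 Illumina HT-12 type BeadArrays of SUDHL6 cells, grouped by title. The authors' own log2 table, deposited for the whole series with 45013 probes, was used as it stands, and its entries ran from 6.28 to 16.28. Background correction and normalization are not stated in the labels or file headers, and changes of dim probes may be understated. A deposited table of raw values, with 45 signal and 45 detection columns that no label ties to samples, was not used. Probes with 1 symbol in the platform annotation numbered 28746, with several 8 and with none 16259. Probes over 0.5 log2 above the array median on 3 or more arrays were called above background, and the probe of highest mean stood for a gene.

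Contrasts were computed in limma 3.58.1 (R 4.3.3) with a mean per group over 44 arrays, two-sided; 15 contrasts followed from the labels and 5 were added after seeing the data, namely siHMGA1+siATF5 against siATF5, the difference of the siFOXM1 changes between sets, and set A against the first set in siNT4, siNT4+siNT4 and siFOXM1. The number of arrays limits the precision, the median 95% interval extending 0.23 to 0.37 to either side for contrasts of 2 groups. Fits were tested on simulated data. Alternatives were all 45 arrays, dim-probe filters, the mean of a gene's probes, quantile normalization, each set alone, a covariate, replicate and deposit blocks, and leaving out each array. Every member past the threshold was named, or else that of smallest p (3 where NFYB was silenced), with the silencing targets. Members, lists and the array left out were chosen with earlier results of these data known. Same-numbered arrays deviated together at r over 0.1 in every pair of no comparison with 3 pairs. They did in siHMGA1+siFOXM1, which had 2 pairs (r of 0.133 and 0.269). The main fit did not pair samples by number, and whether the numbers mark pairs is not settled. The highest correlation between 2 arrays was 0.9962.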

Additional observations from a re-analysis of the deposited data

Results flagged for a closer look

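The level of MVK in siNT4 replicate 1 of the first set was 7.87, while the other 3 arrays of that group lay between 7.70 and 7.72. The level of MVD on the same array was 8.01, while the other 3 lay between 7.65 and 7.68. These 2 values were the only ones standing far from their group among 56 combinations of a gene and a group of 4 arrays. Chance flags about 1 in 20 such combinations, a higher rate than was seen here.

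In siHMGA1+siATF5 against siATF5 the limma test of the difference called FASN at -0.69, HMGCS1 at 0.63, IDI1 at 0.56, INSIG1 at 0.52, LSS at 0.44 and MVK at 0.53. With the share of probes above background in the fit these were -0.28, 0.38, 0.26, 0.23, 0.18 and 0.29, and with the deposit block -0.22, 0.51, 0.38, 0.41, 0.26 and 0.45, none past the threshold. The siATF5 replicates 1 and 2 lie in block 1 and the siHMGA1+siATF5 arrays in blocks 2 and 3.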

How the results depend on the processing

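The counts of genes called in the siNFYB, siNFYB+siFOXM1, siFOXM1, siHMGA1 and siTFDP1 comparisons, and in the siHMGA1+siFOXM1, siHMGA1+siTFDP1 and siHMGA1+siATF5 pairs, were 0 in every alternative run. For siATF5 the count of 1 became 0 with all 45 arrays, with each set alone, with the share of probes above background and with the replicate block (HMGCS1 -0.41, adjusted p = 0.054), 2 with quantile normalization (HMGCS1 and MVK) and 3 with the deposit block (HMGCS1, IDI1 and MVK; an alternative chosen after seeing the data), and it ran from 0 to 8 when single arrays were left out. For siTFDP1+siATF5 the count of 0 became 10 with 45 arrays. For siNT4+siNT4 of set A it became 1 with the set alone (CYP51A1). In siHMGA1+siATF5 against siATF5 the 6 became 0 with 45 arrays, the covariate or the deposit block and 3 with the set alone, and ran from 0 (without siATF5 replicate 2) to 8. Between sets, the 4 of siNT4 became 1 with 45 arrays and ran from 3 to 4 with single arrays left out, the 6 of siFOXM1 became 1 and ran from 3 (without replicate 1 of set A) to 6, and the 0 of siNT4+siNT4 became 1 (SREBF1) with the deposit block and ran from 0 to 1. The share of all genes called shifted too. In siATF5 0.0116% rose and 0.0348% fell with 45 arrays, against 2.78% and 3.15% in the main fit. In siHMGA1+siATF5 against siATF5 0.0464% rose and 0.0464% fell with 45 arrays, against 6.67% and 6.81%. For the alternatives other than 45 arrays the shares of all genes are not given here. The shifts therefore cannot be read as particular to the 28 genes, and their cause was not tested. No direction of a called value was reversed. The replicate number, as a block, changed no other call. The median 95% interval extended from 0.23 to 0.37 log2 to either side, the widest in siTFDP1+siATF5 with 1 array, which limits the changes that could be told from the spread.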
